A study of Mus musculus with 12 samples.

Results

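Cluster 3 of the 28W kidney library held 806 of the 7135 cells of that library (11.3%) and of 20510 cells in the 3 libraries of the series. Its members were all barcodes numbered 3 in the deposited cluster file of that library, and expression came from the deposited mean counts of that cluster. The cells were PD-1+CD44+CD8+ T cells sorted from kidneys of NZB/W F1 mice, a cross that develops lupus nephritis with age, at 28 weeks of age. The other libraries held spleen cells of the same sort and strain, taken at 12 weeks (12W spleen) or 28 weeks (28W spleen). Per the study's methods the mice were female. The labels name no transgene and no treatment. The 4 samples listed for each group share its tables, with no map from cells to samples. Their titles differ only in a running number, and whether it marks sequencing lanes or mice is not stated. The number of mice is not given in the sources used here. Each group was therefore 1 library, no test was possible, and all ratios are descriptions. For 28W spleen the labelled age (12 weeks) and the titles disagree, and the titles were used.

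*Itgb1* encodes CD29, the integrin beta 1 chain, which pairs with alpha chains such as CD49d (*Itga4*) and holds T cells on matrix and on inflamed endothelium. *Tigit* encodes an inhibitory receptor that competes with the activating receptor CD226 for shared ligands on other cells. CD8+ T cells that stay in inflamed tissue often carry inhibitory receptors together with chemokine receptors and cytotoxic granules, while T cells that recirculate carry *Ccr7*, *S1pr1* and the factor *Klf2*, which drives exit from tissue.

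The cluster held 3724821 UMIs, or 4621 per cell, and levels are given as UMIs per 1000000 UMIs of a cluster (counts per 1000000, CPM). The other kidney clusters held 774398 to 5108976 UMIs. Limits in parentheses are exact 95% Poisson limits for a level and limits from the exact binomial interval of the UMI split for a fold, and they cover counting error only. A gene at 0 UMIs in cluster 3 could lie at up to 0.805 CPM (3 UMIs). Of the 806 barcodes, 6 also occurred in the 12W spleen library and 7 in the 28W spleen library. Mitochondrial genes took 0.625% of the cluster's UMIs and ribosomal protein genes 23.6%. The ribosomal share was close to this in clusters 1 (23.9%), 10 (24.3%) and 6 (25.3%). It was 37.6% in cluster 5, 32.5% in cluster 9, 31.7% in cluster 4 and 7.92% in cluster 2. Clusters 7, 8 and 12 held RNA of other cell types (kidney tubule markers summed to 16117 CPM in cluster 7, B cell markers to 12925 in cluster 8 and myeloid markers to 29539.6 in cluster 12), cluster 2 had few UMIs per cell (1200) and a mitochondrial share of 10.8%, and cluster 11 held cycling cells. Levels were therefore also set against the 6 other T cell clusters alone (1, 4, 5, 6, 9 and 10), a choice taken from earlier results of these data.

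Both genes of the label had their highest value of the 12 kidney clusters in cluster 3, for *Tigit* within the counting limits of cluster 6. *Itgb1* was at 727 CPM (699.9 to 755) in cluster 3, and the other 11 clusters ranged from 254 CPM in cluster 12 through a median of 540.2 to 669 CPM in cluster 11. The limits of cluster 3 lay above those of every other cluster. Over the other clusters pooled (530.3 CPM) the level was 1.37-fold higher (1.32 to 1.43). *Tigit* was at 129.9 CPM (119 to 142), beside 125 CPM in cluster 6, 104 in cluster 1 and 29.6 CPM in cluster 5, the lowest. The limits of clusters 3 and 6 overlapped, so these 2 clusters could not be ordered at this depth. Over the other clusters pooled (70.5 CPM) the *Tigit* level was 1.84-fold higher (1.67 to 2.04). *Itgb1* did not pass 1.5-fold, the ratio used below to call a gene higher or lower.

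**Figure D1:**
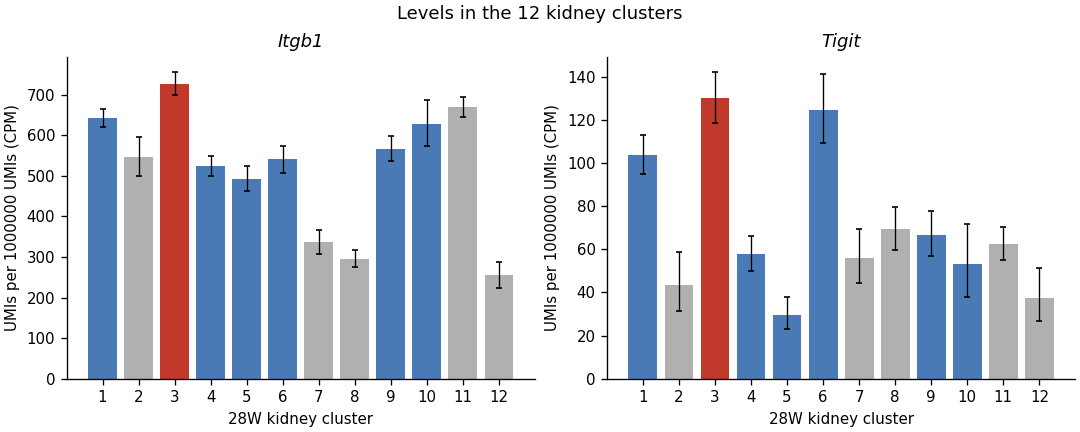
Levels of *Itgb1* and *Tigit* (CPM) in the 12 clusters of the 28W kidney library, with exact 95% Poisson limits as error bars. Cluster 3 is red, the 6 other T cell clusters are blue, and clusters 2, 7, 8, 11 and 12 are grey. *Itgb1* reached 727 CPM in cluster 3 and 669 in cluster 11, and *Tigit* 129.9 in cluster 3 and 125 in cluster 6.

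The markers of the sort were detected. *Cd8a* was at 1026 CPM, *Cd8b1* at 1459, *Pdcd1*, which encodes PD-1, at 159 and *Cd44* at 89.7 CPM. *Cd4* was at 2.95 CPM (11 UMIs), *Trdc*, the constant gene of the delta receptor chain, at 1.88 CPM, and *Foxp3*, the factor of regulatory T cells, at 3.76 CPM. Of 18 receptor complex and signalling genes, 2 were higher than in the other 11 clusters past 1.5-fold and 0 lower. *Cd3g*, a chain of the receptor complex, was at 1952 CPM against 1318. Across the library, 733 of 5933 genes with at least 20 CPM in either side were higher in cluster 3 past 1.5-fold (12.4%) and 418 were lower (7.05%). Those shares are the background for each list below. No share is read as particular to a list, since clusters were made on the same genes, and the median log2 ratio over all of these genes was 0.19, so list medians are read beside that shift.

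Integrin chains were mostly higher or level. Of 7 integrin chains at 20 CPM or more (of 14 listed), 4 were higher past 1.5-fold, 0 lower, and the list median was 0.63 on the log2 scale. *Itga4*, the alpha 4 partner of CD29, was at 509.6 CPM against 293 in the others (1.74-fold). *Itgb2*, the beta 2 chain of LFA-1, was at 539.6 CPM against 347, and its alpha chain *Itgal* at 272 against 168. *Itga4* and *Itgb2* were also the highest of 12 by value, with limits that overlapped those of clusters 2 and 10 and of cluster 6, while *Itgal* reached 382 CPM in cluster 10. *Itgav* was at 38.7 CPM against 23.1. *Itga1*, an alpha chain that binds collagen, was at 17.5 CPM, under the minimum, and *Itgae*, the CD103 chain of epithelial residence, was at 4.30 CPM (16 UMIs). Among adaptors and other adhesion genes, 1 of 12 was higher, *Cd226*, at 203 CPM against 105, and 1 was lower. *Cd96*, another receptor for ligands of TIGIT, was at 70.1 CPM against 55.7, and *Vim*, the intermediate filament vimentin and the most abundant of the list, at 908 against 1033. *Selplg*, the selectin ligand PSGL-1, was at 723 CPM, against 703 CPM in cluster 6, with limits that overlapped.

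*Il7r* and *Klf2*, which the study names together with *Itgb1* for a CD29 subset, were both lower in cluster 3 past 1.5-fold. *Il7r*, the interleukin 7 receptor chain, was at 88.1 CPM against 172 in the other clusters and 624 CPM in cluster 5. *Klf2* was at 122 CPM against 351, with 1309 CPM in cluster 8 and 87.7 CPM in cluster 1. That list was drawn up by the study from cells of this series, so it is not independent of them.

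Among inhibitory receptors, 2 of 6 at or over the minimum were higher and 0 lower. They were *Tigit* and *Cd160*, at 69.8 CPM against 38.8. *Pdcd1* was at 159 CPM against 109, second to 229 CPM in cluster 6, and *Lag3* at 78.7 against 63.3. *Havcr2*, which encodes TIM-3, was at 8.86 CPM (33 UMIs). Natural killer receptors were led by the NKG2 family. *Klrc1*, which encodes NKG2A, was at 263 CPM against 126 (2.09-fold, 1.95 to 2.25). *Klrk1*, the activating receptor NKG2D, was at 146 against 78.4, and *Klrd1*, the CD94 partner of NKG2A, at 143 against 91.9. These were the 3 listed members over the minimum, all past 1.5-fold and all highest of 12 by value. For *Klrd1* the limits overlapped those of clusters 1 and 6. *Klrc1* was at 214 CPM in cluster 1 and 204 in cluster 6, and over cluster 6 alone 0 of the 3 passed 1.5-fold. *Klrg1*, a mark of short-lived effector cells, was at 8.05 CPM and *Ncr1* at 8.32 CPM.

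Cytotoxic genes were split between higher and level members. Of 13 members, 3 were higher and 0 lower. *Prf1*, the pore-forming perforin, was at 138 CPM against 75.5, and *Fasl*, the death receptor ligand, at 132 against 64.2. *Gzmk*, granzyme K, was at 815 CPM against 540.1 (1.51-fold), below 902 CPM in cluster 6. *Gzmb*, granzyme B, was at 261 CPM against 285 in the pooled others, far under 696 CPM in cluster 1 and 603 in cluster 11. Cluster 6 was at 281 CPM, and the median of the other 11 clusters was 69.3 CPM. *Gzma* was at 148 against 167. *Nkg7*, a granule membrane protein and the most abundant of the list, was at 2587 CPM against 1737. Of effector cytokines, 1 of 5 was higher, *Tnfsf10*, which encodes TRAIL, at 48.9 CPM against 21.5. *Ltb*, which encodes lymphotoxin beta, was at 1475 CPM against 1130.0. *Ifng* was at 112 CPM against 81.1, and *Il17a* had 0 UMIs.

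Chemokine receptors of inflamed tissue were high and the lymph node receptor was low. Of 6 receptors over the minimum, 4 were higher and 1 lower. *Cxcr6*, whose ligand is presented on tissue cells, was at 861 CPM against 424 (2.03-fold), beside 870.3 CPM in cluster 6. *Cxcr3*, the receptor of interferon-induced chemokines, was at 629 against 391.8, and *Ccr2* at 221 against 126. *Ccr7* was at 14.2 CPM against 87.3 (6.14-fold lower, 4.68 to 8.22). *Ccl5*, a chemokine of activated T cells, was at 11172 CPM against 6973, and it was the 1 of 4 chemokines past 1.5-fold. The chemokine list summed to 11791 CPM in cluster 3 and to 16692 in cluster 6. With no minimum level, so that receptors near 0 CPM entered, the median of the chemokine receptor list turned from 0.74 to -0.63.

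Against the other 11 clusters pooled, genes of tissue residence and of exit from tissue lay on opposite sides. Of 7 residency genes, 4 were higher and 1 lower. *Rgs1*, which dampens chemokine receptor signalling, was at 582 CPM against 329.5, highest of 12 by value, with limits that overlapped those of cluster 10. *Prdm1*, which encodes the repressor Blimp-1, was at 24.7 against 10.8. It reached the minimum through cluster 3 only, so it could not have been called lower. *Cd69*, which blocks the exit receptor S1PR1, was at 115 CPM against 123, and *Bhlhe40* at 46.7 against 91.6. Of 5 exit genes, 0 were higher and 3 lower, among them *Klf2* and *Ccr7*, while *S1pr1* was at 38.7 CPM against 55.2. The exit list summed to 293 CPM in cluster 3, beside 226 in cluster 6, 250 in cluster 1 and 2081 in cluster 8. The residency list summed to 1706 CPM in cluster 3, beside 1532 in cluster 6, 1358 in cluster 1 and 1524 in cluster 8. Over cluster 6 alone, 2 of 7 residency genes were higher and 0 lower, so these levels were largely shared with that cluster. Of 11 naive and memory genes, 0 were higher and 6 lower, and *Tcf7*, the factor of stem-like T cells, was within 1.5-fold at 84.0 CPM against 75.9.

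Of 15 effector and exhaustion factors, 5 were higher and 3 lower. *Id2*, a partner of effector differentiation, was at 728 CPM against 442, *Tox*, a factor of exhausted T cells, at 115 against 70.1, and *Hopx* at 331 against 188. *Tbx21*, which encodes T-bet, was at 103 CPM and *Eomes* at 129.7 CPM, both highest of 12 by value, with limits that overlapped those of 3 or more clusters each, and within 1.5-fold of the others (69.3 and 88.1). *Nr4a1*, an early gene of receptor signalling, was at 11.8 CPM against 100.3 in the pooled others. The effector and exhaustion factors summed to 2044 CPM in cluster 3 and to 2535 in cluster 8, which held B cell RNA. Against the 6 T cell clusters, 3 of 13 of these factors were higher and 0 lower. Of 13 immediate-early genes, 0 were higher and 10 lower, with *Fosb* at 6.71 CPM against 35.9 and *Junb* at 260.1 CPM against 828 and 4515 CPM in cluster 8. Against the 6 T cell clusters *Junb* was the 1 immediate-early gene still lower past 1.5-fold, at 260.1 against 425 CPM. Cytokine receptors had 4 of 11 higher, among them *Il18rap* at 41.3 CPM against 20.1, and 1 lower, *Il7r*. *Il2rg*, the common gamma chain, was at 792 CPM against 618. Costimulatory receptors had 2 of 8 higher, *Slamf7* at 128 CPM against 75.7 and *Cd38* at 72.2 against 43.4. All 12 proliferation genes were lower than in the pooled others, where cluster 11 summed to 14259.5 CPM against 858.6 in cluster 3 and 804.6 to 1625 in the other T cell clusters.

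The interferon-stimulated list summed to 11201.6 CPM in cluster 3, below 15935 in cluster 6 and 11972 in cluster 10 and above the other clusters. Of 17 members over the minimum, 8 were higher than in the other 11 clusters and 0 lower. *Ifit3* was at 229.5 CPM against 119, and *Ifit1*, an antiviral RNA-binding protein, at 165 against 85.8. *Ly6a*, which encodes Sca-1, was the most abundant at 4257 CPM against 3055. Against the 6 T cell clusters, 0 members were higher and 0 lower. Of 15 cytoskeleton genes 0 were higher and 1 lower, of 16 S100, annexin and galectin genes 1 and 3, and of 10 glycolysis genes 1 and 1. *Slc2a3*, a glucose transporter, was at 41.9 CPM against 21.2, and *Gapdh* at 1489 against 1980.2. *S100a6* was at 1882 against 1622, and *Ahnak* at 346 against 205. *Capg*, which caps actin filaments, was at 59.1 CPM against 90.1. Of 10 heat shock genes 1 was higher, *Hsph1*, at 395 CPM against 215. Of 10 feedback and survival genes 1 was higher, *Cish*, and 2 lower, *Pim1* and *Socs3*. Of 4 regulatory T cell genes 0 were past 1.5-fold in either direction, and no type 17 gene reached 20 CPM.

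**Figure D2:**
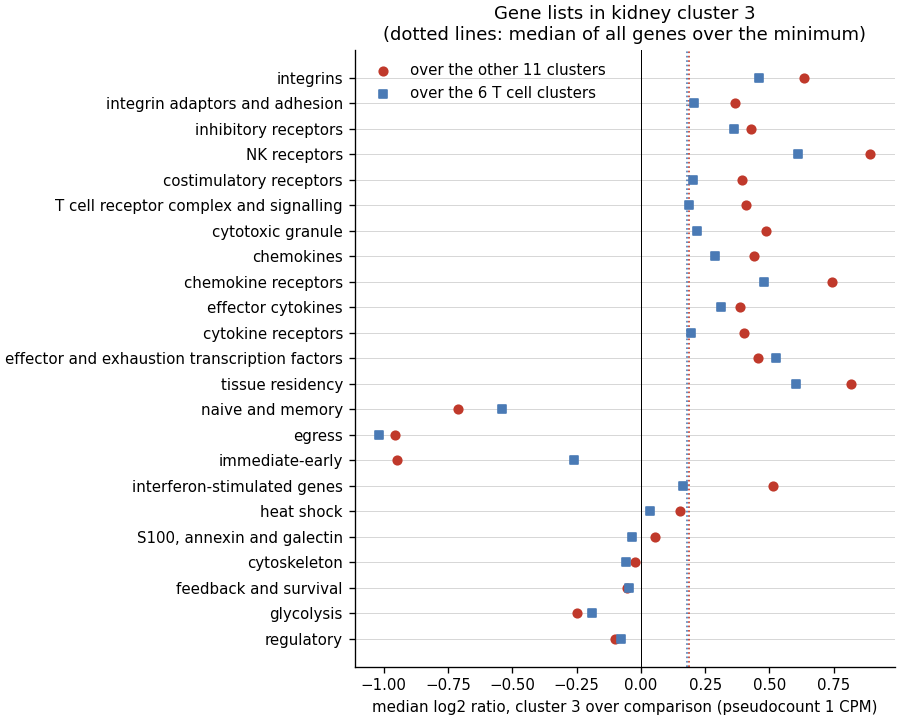
Median log2 ratio of each T cell gene list in cluster 3 over the other 11 kidney clusters (red circles) and over the 6 T cell clusters (blue squares), with dotted lines at the medians of all genes over the minimum (0.19 and 0.18). Cell type marker, proliferation, NKT and CD29 lists are not plotted. NK receptors and tissue residency lay farthest to the right in both comparisons (0.89 and 0.82 over the other 11 clusters), and egress, naive and memory, and immediate-early genes farthest to the left.

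Set against the 6 T cell clusters alone, most of these medians were closer to that of all genes. Those of heat shock, cytoskeleton and S100, annexin and galectin genes were not, nor were those of egress (-1.02 against -0.96) and of effector and exhaustion factors (0.53 against 0.45). In that comparison 589 of 5681 genes were higher past 1.5-fold (10.4%) and 44 lower (0.775%). The split between higher and lower genes depended on the scaling. When receptor, immunoglobulin, mitochondrial and ribosomal genes were taken out of the totals, the split over the other 11 clusters was 545 higher and 502 lower, and after scaling by the median gene ratio 222 and 543, against 733 and 418. The genes higher than in the T cell clusters had a median genomic span of 69.1 kb against 22.2 kb for all genes of the comparison, and *Malat1*, a nuclear RNA, was at 5188 CPM against 2758 in the T cell clusters. The part of nuclear RNA in these ratios was not tested. Among the lists, 2 of 7 integrins stayed higher (*Itga4* and *Itgav*), 2 of 3 NK receptors, 3 of 6 chemokine receptors and 4 of 7 residency genes. Cytotoxic genes kept 1 of 13 higher and chemokines 0 of 4. *Il7r* was 2.67-fold lower and *Klf2* 2.10-fold lower (1.91 to 2.32). Other genes among the 12 lowest ratios, at 50 CPM or more in either side, were *Stmn1*, a tubulin-binding protein of cycling cells, at 16.9 CPM against 65.8, *Tmem176b* at 16.6 against 53.5 and *Ramp1*, a receptor partner for the peptide CGRP, at 36.8 against 65.0. The highest ratio at that minimum was that of *Igha*, the constant gene of immunoglobulin A, with 203 UMIs and 54.5 CPM in cluster 3 against 7.20 CPM in the T cell clusters. *Gm26825*, *Zfp445*, *Rbl2*, *Usp24* and *Mdm4* followed, and *Gm26825* was at 274 CPM against 130.4. *Igha* and the genes at each end of this comparison were chosen after their values were seen. *Igha* reached 2045 CPM in cluster 2, and *Jchain*, the joining chain of secreted antibody, was at 16.9 CPM in cluster 3 against 13.9 in the T cell clusters.

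Markers of other cells summed to levels within the range of the 6 T cell clusters for B cells, myeloid cells and kidney tubule, below it for neutrophils and red cells, and above it for endothelial and stromal cells. The B cell list summed to 211.8 CPM in cluster 3 and 182.1 to 284.7 in the other T cell clusters, and *Ms4a1*, which encodes CD20, had 1 UMI. The myeloid list summed to 234.6 CPM against 199.97 to 244.3, *Itgam* had 0 UMIs, and *Lyz2*, a lysozyme of myeloid cells, was at 12.6 CPM against 1.96 in the T cell clusters pooled. *Tyrobp*, a signalling adaptor of myeloid and NK cells, was at 13.7 CPM against 4.17. The endothelial list summed to 44.03 CPM against 16.04 to 34.9, with *Plvap* at 8.32 CPM against 0.758. The kidney tubule list summed to 29.5 CPM against 27.6 to 83.9, with *Umod*, *Kap* and *Slc22a6* at 0 UMIs. The stromal and mesangial list summed to 4.83 CPM against 0 to 2.89. Neutrophil and red cell lists summed to 0.268 and 0.805 CPM. The part of these cells in the ratios was not tested. The lowest ratios over the other 11 clusters, at 50 CPM or more in either side, belonged mostly to such genes, whose highest levels were in clusters 2, 7, 8 and 12. *S100a9* had 0 UMIs in cluster 3 (at least 305-fold lower than the pooled others at 246 CPM), *S100a8* likewise (at least 293-fold lower), and *Cd74*, the invariant chain of MHC class II, was at 30.3 CPM against 2116. Against the T cell clusters *Cd74* was at 37.6 CPM. *Gm20730*, *Camp*, *Ngp*, *Hbb-bs*, *Hba-a1*, *H2-Aa*, *Jchain*, *Cd79a* and *C1qa* complete the 12 lowest.

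At a minimum of 50 CPM in cluster 3 or in the pooled others, the 12 highest ratios over the other 11 clusters were those of *Gbp10*, *Crot*, *Rbl2*, *Padi2*, *Zfp445*, *Fgl2*, *Adam19*, *Wdr95*, *Klrc1*, *Gm26825*, *Fasl* and *Cxcr6*, from 2.50-fold for *Gbp10* to 2.03-fold for *Cxcr6*. *Fgl2*, a secreted inhibitor of T cell and antigen-presenting cell responses, was at 189.8 CPM against 89.1. *Rbl2*, which encodes the p130 brake on the cell cycle, was at 182 against 80.8. Cluster 3 was the highest of 12 for 477 of 5933 genes (8.04%), close to the 1 in 12 of an even spread over clusters. Of the 7 T cell clusters it was the highest for 1167 of these genes (19.7%), where an even spread would give 1 in 7. Among genes at 50 CPM or more in cluster 3, its largest lead over the next of the 12 clusters was 1.40-fold, for *Adora2a*, an adenosine receptor that restrains T cells (67.9 CPM against 48.5 in cluster 1). *Stk26*, *Gm26825*, *Klrk1*, *Uri1* and *Zfp266* followed, at 1.38-fold to 1.29-fold. Also at 50 CPM or more in cluster 3, the genes whose levels over the 12 clusters followed *Itgb1* most closely were *Pfkp*, *Stk26*, *Tbx21*, *Cd226* and *Gimap4* (r = 0.96 to 0.94), and those that followed *Tigit* were *Cd38*, *Tmem192*, *Akirin1*, *Slamf7* and *Fasl* (r = 0.90 to 0.83). Over the 7 T cell clusters alone, cluster 3 included, none of these genes was among the closest 5, which were *Brd7*, *Hnrnpll*, *Sf3b1*, *Bfar* and *Lrrfip1* for *Itgb1* (r = 0.96 to 0.94) and *Tm6sf1*, *Cyth4*, *Inpp1*, *Tnfrsf1a* and *Nde1* for *Tigit* (r = 0.99 to 0.98). The points were 12 clusters of 1 library that share depth and preparation.

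The most alike kidney clusters were 6 (604 cells, r = 0.991 over 8436 genes on the log2 scale) and 9 (513 cells, r = 0.983). Over cluster 6, 302 of 5719 genes were higher in cluster 3 (5.28%) and 44 lower (0.769%), and 11 of 18 interferon-stimulated genes were among the lower ones. *Isg15*, an ubiquitin-like modifier, was at 349 CPM in cluster 3 and 908 in cluster 6 (2.60-fold lower, 2.42 to 2.80). *Cxcl10*, the ligand of CXCR3, was at 23.4 against 89.5 CPM, *Rsad2*, the antiviral enzyme viperin, at 45.9 against 114, and *Ifit3* at 229.5 against 478. Cluster 6 held the highest level of 12 for *Isg15*, *Ifit3* and *Rsad2*. *Ifit3b* and *Ifitm3* were lower too, and *Ube2l6*, the enzyme that loads ISG15, was at 28.2 against 65.7 CPM. Naive and memory genes lay the other way, with 6 of 9 higher in cluster 3, among them *Il7r* (88.1 against 41.9 CPM) and *Id3* (33.8 against 18.1). Of 4 exit genes 1 was higher in cluster 3 and 0 lower. *Igha*, *Ash1l*, *Supt6*, *Gm26825* and *Jmjd1c* were the other genes with the highest ratios over cluster 6 at 50 CPM or more in either cluster.

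The letters GAAANNGAAA, the core of the interferon-stimulated response element, were searched on both strands of the 250 bases before each gene start in RefSeq (GRCm38.p6), a motif and genes chosen after the values were seen. They were found in 936 of 27025 promoters of the table (3.46%) and in 181 of the 4533 promoters matched to genes of the comparison with cluster 6 (3.99%). Of the 44 genes lower than in cluster 6 only 34 (77.3%) had a promoter in the table, and of all genes of that comparison 79.3%. Both are under 80%, so a check of the share among the lower genes against that background is void and none is given. A match is a description of the sequence and not a binding site. The promoters of *Isg15*, *Cxcl10* and *Ifit3* are shown because these genes were lower in cluster 3 than in cluster 6 and hold the letters. They are written 5′ to 3′ on the gene's strand, with matches on either strand in capitals, and overlapping matches in *Isg15* run together.
Isg15 (chr4:156200819-156201068, minus strand): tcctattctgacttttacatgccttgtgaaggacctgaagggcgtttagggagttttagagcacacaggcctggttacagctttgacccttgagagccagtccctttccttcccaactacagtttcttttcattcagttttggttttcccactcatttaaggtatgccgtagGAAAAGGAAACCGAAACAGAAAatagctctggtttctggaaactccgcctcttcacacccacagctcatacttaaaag
Cxcl10 (chr5:92348890-92349139, minus strand): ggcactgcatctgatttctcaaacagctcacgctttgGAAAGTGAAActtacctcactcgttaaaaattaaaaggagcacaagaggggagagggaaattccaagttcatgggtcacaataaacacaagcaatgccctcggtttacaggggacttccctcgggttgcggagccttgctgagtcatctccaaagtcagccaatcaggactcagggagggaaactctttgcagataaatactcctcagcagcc
Ifit3 (chr19:34583279-34583528, plus strand): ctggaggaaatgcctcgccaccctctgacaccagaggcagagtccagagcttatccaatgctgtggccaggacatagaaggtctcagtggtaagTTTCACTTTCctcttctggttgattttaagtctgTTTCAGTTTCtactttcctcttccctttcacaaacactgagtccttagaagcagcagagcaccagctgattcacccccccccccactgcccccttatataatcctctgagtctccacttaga

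Cluster 9 held more of the naive, memory and exit genes. Over cluster 9, 541 of 5764 genes were higher in cluster 3 (9.39%) and 159 lower (2.76%). Of 11 naive and memory genes 9 were lower in cluster 3, as were 4 of 5 exit genes and 9 of 13 immediate-early genes. *Il7r* was at 88.1 CPM in cluster 3 and 404 in cluster 9, and *Ccr7* at 14.2 against 86.0. *Socs3*, an inhibitor of cytokine signalling, *Klf2* and *Junb* were also among the 6 lowest ratios at 50 CPM or more in either cluster. Cytotoxic genes were higher for 8 of 13 members, and interferon-stimulated genes for 11 of 17. *Gzmb* was at 261 CPM against 39.7 (6.59-fold higher, 5.33 to 8.22), *Fgl2* at 189.8 against 38.8, and *Ccr2* at 221 against 50.9. *Igha*, *Wdr95* and *Arsb* were the other genes with the highest ratios at that minimum.

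**Figure D3:**
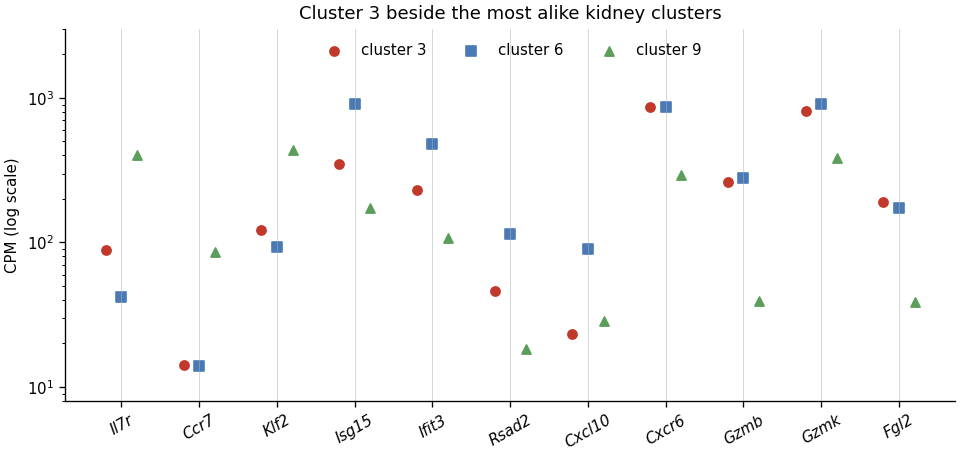
Levels (CPM, log scale) of 11 genes in cluster 3 (red circles), cluster 6 (blue squares) and cluster 9 (green triangles) of the 28W kidney library. Cluster 3 lay between the others for *Il7r*, *Klf2*, *Isg15*, *Ifit3* and *Rsad2*, and beside cluster 6 for *Cxcr6*, *Gzmb*, *Gzmk* and *Fgl2*.

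In each spleen library the most alike cluster was cluster 2 (r = 0.974 in 28W spleen with 1027 cells, 0.965 in 12W spleen with 1118 cells). *Itgb1* was at 603 CPM in 28W spleen cluster 2 and 502 in 12W spleen cluster 2, and *Tigit* at 70.4 and 30.2 CPM. The kidney cluster was not the highest for *Itgb1* in the series, since 28W spleen cluster 11, with 1288 UMIs per cell and a mitochondrial share of 6.64%, was at 1506 CPM and cluster 5 at 821. *Cxcr6* was at 103 CPM in 28W spleen cluster 2 against 861 in the kidney cluster, and *Ccr2* at 31.4 against 221. *Klf2* was at 1377 CPM against 122 (11.3-fold lower in the kidney cluster), *Il7r* at 454 against 88.1, and *Ccr7* at 92.9 against 14.2. *Fgl2* was at 12.9 CPM against 189.8, and *Igha* had 0 UMIs in that spleen cluster. Other kidney clusters stood apart from the spleen cluster in the same genes, as *Klf2* was at 87.7 CPM in kidney cluster 1 and 92.6 in cluster 6, and *Cxcr6* at 826 and 870.3 CPM. The heat shock genes *Hspa1a* and *Hspa1b* were at 794 and 416 CPM in the kidney cluster and at 36.7 and 45.3 in 28W spleen cluster 2. The study's methods describe a collagenase digestion for kidney and none for spleen, so organ and digestion cannot be told apart. Tables of the libraries were normalized separately, and these levels rest on rescaling to each cluster's total.

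Receptor V segments were many in both chains. The cluster held 7754 Trbv UMIs and 3791 Trav UMIs. *Trbv13-2* took 25.6% of Trbv UMIs (24.6 to 26.6, exact binomial 95% limits), *Trbv13-1* 22.96% (22.02 to 23.9) and *Trbv14* 11.1% (10.4 to 11.8). In the other clusters these shares ranged from 17.7 to 26.3%, 19.1 to 34.3% and 6.002 to 13.1%. The effective number of Trbv segments was 9.02, within the range of 7.72 to 10.8 over the other single clusters. The leading Trav segments were *Trav10d* (6.96%), *Trav5-4* (4.72%) and *Trav12-2* (4.67%). The effective number, which is the exponential of the Shannon entropy of the shares, was 42.5, within a range of 25.3 to 45.5. The low end came from cluster 12, with only 180 Trav UMIs, while cluster 1, with 5856, was at 36.5. *Trav14d-3-dv8* was highest of the kidney clusters by value, at 4.59% (3.95 to 5.31) against 3.89% in cluster 1. No limits were computed for the share in cluster 1, so this order is by value only. Other segments also ranked first, among them *Trav10*, at 3.17% against at most 3.09%. Since a cell gives many UMIs of its own receptor, the limits are narrower than limits over cells would be.

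**Figure D4:**
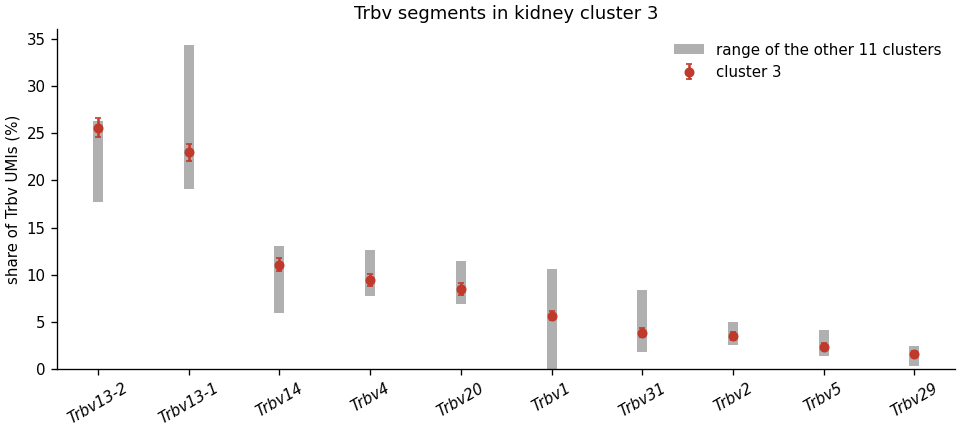
Share of Trbv UMIs (%) taken by the most used segments in cluster 3 (red points with exact binomial 95% limits) and the range over the other 11 kidney clusters (grey bars). Each share of cluster 3 lay within the range of the other clusters, as for *Trbv13-2* at 25.6% against 17.7 to 26.3%.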

How the data were processed

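Per the labels, 12 samples of sorted PD-1+CD44+CD8+ T cells formed 3 groups (12W spleen, 28W spleen and 28W kidney), with a 10x Genomics 5′ v2 kit. The submitters' processing notes list Cell Ranger 2.1.1, R 3.6.1 and GRCm38. The annotation release, cell filters and treatment of doublets are not given in the sources used here. The authors deposited, for each library, a cluster number for each cell barcode and a table of mean counts per gene and cluster, in which every value is a whole multiple of 1 UMI scaled by the cluster's size factors. Dividing by the smallest positive value gave whole UMIs for 100% of values (tolerance 0.001). The tables' log2 fold changes and adjusted p-values are the authors' own comparisons and were not used, and receptor clonotypes are not used here. Libraries held 29937384 to 34742303 UMIs, so counting limits are narrow, but they leave out variation between mice.

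UMIs were expressed as CPM, and log2 ratios had 1 CPM added on each side, so that changes of low genes are understated. Genes with at least 20 CPM in either side were compared, and 1.5-fold counted as past. A gene that reached the minimum on only 1 side could be called past 1.5-fold in that direction alone. With 1 library per group, and clusters made on the same genes, no test was run. The ratio script was tested on simulated data with independent counting error only, so variation between cells or mice was not covered. It first missed its own criteria for error and coverage, and these were changed with the failure known. Likeness was Pearson's r of log2(CPM + 10). Coordinates and spans came from GENCODE M21 and promoters from RefSeq (GRCm38.p6). The rule put the member with the largest ratio and the one with the highest level first among a list's examples, but the text does not always keep that order. Besides lists, the rule named the 12 highest and 12 lowest ratios at 50 CPM or more (V, D and J segments apart), 5 genes most like *Itgb1* and *Tigit*, 6 leads, 6 genes at each end against each alike cluster and 3 V segments. The cluster, its 37 lists and the T cell clusters were chosen with earlier results of these data known. Gene spans, *Malat1*, *Igha*, *Jchain*, the motif, the promoters and further list members named for their role were chosen after these values were seen. Some genes of the lists are not reported here by name. Python 3.11.15, numpy 2.4.6, pandas 2.3.3 and scipy 1.17.1 were used. Alternatives covered the pseudocount, cluster weights, clusters left out, totals, scaling and the minimum level.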

Additional observations from a re-analysis of the deposited data

How the results depend on the processing

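Of 356 values recomputed under other settings, 205 stayed within their counting limits or within 1.5 times a count, 145 moved and 6 changed sign from a value past 1.5-fold. Clusters 6 and 9 remained the 2 most alike under every measure tried. Genes higher and lower past 1.5-fold over the other 11 clusters were 733 and 418. The count of higher genes was 352 with a pseudocount of 10 CPM, 448 with equal weight per cluster, 222 after scaling by the median gene ratio, and 1148, 184 and 1446 with a minimum of 5 CPM, 100 CPM or none. The count of lower genes was 251 without clusters 7, 8 and 12, 44 without clusters 2, 7, 8, 11 and 12, and 961, 125 and 2429 with those minimums. By the inverse Simpson index the effective number of segments was 6.50 for Trbv and 33.2 for Trav. The cause of these shifts was not tested, beyond what a setting's own construction removes. Values that left their limits follow, as log2 ratios of *Itgb1* and *Tigit* and as medians of lists. With a pseudocount of 10 CPM the log2 value was -2.11 for proliferation, -1.96 for B cell markers, -2.62 for myeloid markers, -3.15 for kidney tubule markers, -3.18 for red cell markers and -4.17 for neutrophil markers. With equal weight per cluster the log2 value was 0.54 for Itgb1, 0.61 for cytotoxic granule, 0.85 for chemokine receptors, 0.43 for effector cytokines, 0.20 for effector and exhaustion transcription factors and 0.36 for interferon-stimulated genes. It was -2.48 for proliferation, 0.18 for S100, annexin and galectin, 0.15 for cytoskeleton, 0.51 for T cell receptor complex and signalling, -0.042 for glycolysis and 0.46 for CD4 T cell markers. It was -1.97 for NKT and innate-like, -4.43 for myeloid markers, -1.08 for endothelial markers and 0.60 for sort markers. Without clusters 7, 8 and 12 the log2 value was 0.30 for Itgb1, 0.71 for NK receptors, 0.29 for cytotoxic granule, 0.54 for chemokine receptors, 0.23 for effector cytokines and 0.27 for cytokine receptors. It was -0.39 for naive and memory, 0.36 for interferon-stimulated genes, -0.18 for immediate-early, -0.13 for cytoskeleton, 0.25 for T cell receptor complex and signalling and 0.18 for CD4 T cell markers. It was 0.28 for NKT and innate-like, -1.32 for B cell markers, 0.21 for myeloid markers, -1.97 for kidney tubule markers and 0.32 for sort markers. Without clusters 2, 7, 8, 11 and 12 the log2 value was 0.35 for Itgb1, 0.73 for Tigit, 0.46 for integrins, 0.61 for NK receptors, 0.22 for cytotoxic granule and 0.29 for chemokines. It was 0.48 for chemokine receptors, 0.31 for effector cytokines, 0.20 for cytokine receptors, 0.16 for interferon-stimulated genes, -0.39 for proliferation and -0.26 for immediate-early. It was 0.037 for heat shock, 0.19 for T cell receptor complex and signalling, 0.20 for costimulatory receptors, 0.17 for CD4 T cell markers, -0.38 for gamma delta T cell markers and 0.13 for NKT and innate-like. It was -0.14 for B cell markers, 0.35 for myeloid markers and 0.24 for sort markers. With receptor, immunoglobulin, mitochondrial and ribosomal genes out of the total the log2 value was 0.37 for Itgb1, 0.30 for effector cytokines, 0.29 for effector and exhaustion transcription factors, 0.069 for heat shock, -0.10 for cytoskeleton and 0.15 for costimulatory receptors. It was -0.36 for glycolysis, -0.53 for endothelial markers and -7.18 for neutrophil markers. Scaled by the median gene ratio the log2 value was 0.27 for Itgb1, 0.69 for Tigit, 0.45 for integrins, 0.18 for integrin adaptors and adhesion, 0.24 for inhibitory receptors and 0.71 for NK receptors. It was 0.30 for cytotoxic granule, 0.25 for chemokines, 0.56 for chemokine receptors, 0.20 for effector cytokines, 0.22 for cytokine receptors and 0.27 for effector and exhaustion transcription factors. It was -1.14 for study CD29 genes, 0.33 for interferon-stimulated genes, -1.13 for immediate-early, -0.034 for heat shock, -0.13 for S100, annexin and galectin and -0.21 for cytoskeleton. It was 0.22 for T cell receptor complex and signalling, 0.21 for costimulatory receptors, -0.24 for feedback and survival, -0.43 for glycolysis, 0.13 for CD4 T cell markers and 0.31 for sort markers. With 1 other cluster left out, the lowest log2 value was 0.38 for Itgb1, 0.60 for chemokine receptors, 0.28 for effector cytokines, -1.20 for study CD29 genes, -1.16 for immediate-early and 0.082 for heat shock. It was -0.095 for cytoskeleton, 0.34 for T cell receptor complex and signalling, -0.25 for gamma delta T cell markers, -0.64 for endothelial markers and 0.38 for sort markers. With 1 other cluster left out, the highest log2 value was 0.53 for Itgb1, 1.05 for Tigit, 0.73 for integrins, 1.05 for NK receptors, 0.64 for cytotoxic granule and 1.01 for chemokine receptors. It was 0.45 for effector cytokines, -0.40 for naive and memory, -0.57 for study CD29 genes, 0.67 for interferon-stimulated genes, -0.34 for proliferation and -0.33 for immediate-early. It was 0.17 for S100, annexin and galectin, 0.12 for cytoskeleton, 0.53 for T cell receptor complex and signalling, 0.18 for NKT and innate-like, -2.34 for B cell markers and -0.11 for myeloid markers. It was -1.92 for kidney tubule markers, -5.11 for red cell markers and 0.63 for sort markers. With no minimum level the log2 value was 0.29 for integrins, 0.50 for NK receptors, -0.63 for chemokine receptors, 0.19 for effector cytokines, -0.45 for naive and memory and 0.16 for costimulatory receptors. It was -0.076 for CD4 T cell markers, -0.39 for gamma delta T cell markers, -0.015 for NKT and innate-like, -4.32 for kidney tubule markers, -0.42 for endothelial markers and -5.22 for red cell markers. It was -6.69 for neutrophil markers. The sign changes from values past 1.5-fold were those of chemokine receptors with no minimum and of NKT and myeloid lists without clusters that hold other cells. No paired analysis was possible because each group is 1 library and no value comes from a test.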
